A study of Mus musculus with 6 samples.

Results

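Transcripts of 9 complement genes were followed in infarcted mouse myocardium, chosen by gene symbol out of 16199 symbols measured. They were C1qa, C1qb and C1qc, which encode the chains of C1q, then C4b, C3, Cfb, the receptor gene C3ar1 and the inhibitor genes Cfi and Cd55. All 9 were found in the table and all 9 passed the filter on low values. Of the 6 libraries, 3 are labelled ITIH5 knockdown and 3 wild type. In both groups the left anterior descending branch of the coronary artery had been tied off and the tissue was taken 7 days after infarction, so there is no uninjured heart to compare with. How ITIH5 was knocked down is not given in the sources used here, and neither are the strain, sex and age of the mice. ITIH5 is a secreted protein of the inter-alpha-trypsin inhibitor family, and the comparison asks whether it acts on scarring by way of the immune response.

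Complement is a cascade of blood and tissue proteins that marks dying cells and microbes for removal. C1q binds to antibody or to dying cells and starts the classical route, in which C4 takes part. The lectin route starts from ficolins and collectins. Both routes lead to cleavage of C3, and factor B keeps that cleavage going in the alternative route. The released fragment C3a signals through the C3a receptor, while factor I and CD55 restrain the cascade. Liver makes most of the C3 in plasma, but macrophages are the main source of C1q in many tissues, and fibroblasts, mesothelial cells and fat cells make several of the other components.

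The deposited values are named as TPM, a length-corrected share of transcripts, but were adjusted further by the authors in a way that is not stated. Whether they are still corrected for length is not known. The table holds no counts, so the depth behind a value is unknown. Low values above 0.2 sat near whole multiples of a step of 0.961 to 1.164 in the libraries labelled knockdown and 0.895 to 0.975 in wild type. This limits the precision of weakly expressed genes. Values between 0 and 0.2 were found in replicate 1 of the labelled knockdown alone, 1077 of them. That library had 211 values at 0, against 731 to 1080 in the others. Itih5 itself was at 18.4, 10.5 and 19.96 in the libraries labelled knockdown replicates 1, 2 and 3, against 9.73, 13.1 and 17.2 in wild type, so its transcript was not lower in the labelled knockdown (log2 difference 0.26, 95% interval -0.39 to 0.90). All directions below therefore rest on the labels. Heart muscle markers were present in every library, and all 8 had a higher mean in the labelled knockdown. Their summed value was 22475, 11474 and 6724 there and 7917, 8106 and 6987 in wild type. Mitochondrially encoded transcripts made up 32.6%, 14.8% and 20.2% of the values in the libraries labelled knockdown and 10.9% to 13.8% in wild type. Replicate 1 of the labelled knockdown stood apart on both measures, and differences of the 9 genes and of Itgam, Itgb2, Cfp, C5ar1 and Cfd that moved by over 1.5 times without it are given without it too. No label says that each library is a different animal. A p-value therefore compares the groups with the spread among 3 libraries each, and that spread may be technical.

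Of the 9 genes, 8 had a lower mean in the libraries labelled knockdown and 1, Cd55, had a higher mean, where a lower or higher mean here and in all counts below is that of log2(value + 1). Their median log2 difference was -0.63, where the median of the 14025 genes tested was 0.0046 and 49.2% of them were below 0. The 9 genes were chosen with earlier results of these data known, and some of them share a profile over the libraries. Their count and median are therefore a description and no independent evidence of a shift. Without the library labelled knockdown replicate 1 the median of the 9 was -0.30. None passed the test (limma, adjusted over all genes tested at 0.05), and neither did any other gene, a background of 0%. At an unadjusted p under 0.05 there were 2 lower genes among the 9, C3ar1 and Cfi, against a background of 6.55%, and 1 higher gene, Cd55, against 8.29%. The groups did not overlap for C1qb and Cfi on the lower side, where 9.88% of all genes were lower without overlap, and for Cd55 on the higher side, where the share was 12.6%. Each gene is described below by its values in every library.

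**Figure D1:**
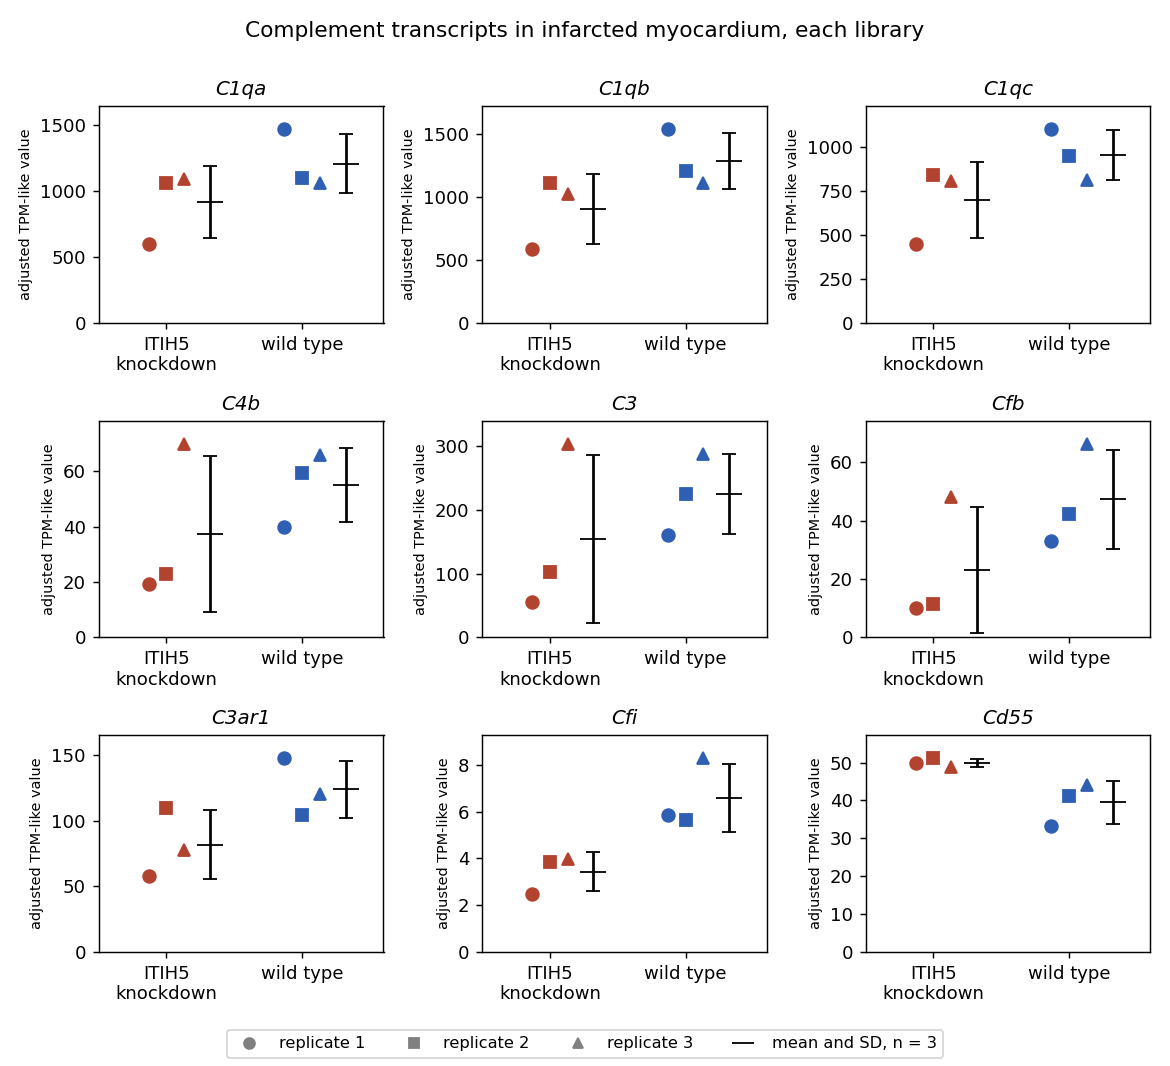
Adjusted TPM-like values (y axis, linear from 0) of the 9 complement genes in each library, with ITIH5 knockdown in red and wild type in blue; symbols mark replicate numbers, and the bar is the mean with its SD (n = 3). The C1q subunits are lowest in the library labelled knockdown replicate 1, C4b, C3 and Cfb are low in replicates 1 and 2 of that group, and Cd55 is higher in all 3 libraries labelled knockdown than in any wild-type library.

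The C1q genes were the most abundant of the 9. They lie side by side on the minus strand of chromosome 4 in mm10, C1qb at 136880129 to 136886187, C1qc at 136889804 to 136893065 and C1qa at 136895917 to 136898803, all within 18675 bases and all annotated as protein coding. RefSeq promoter windows of build GRCm38.p6, from 250 bases before to 50 after the gene's start, were found for 5 of the 9 genes. Those of C1qb (chr4:136886151-136886450, minus strand), C1qc (chr4:136892865-136893164, minus strand), C3ar1 (chr6:122856108-122856407, minus strand) and C3 (chr17:57228087-57228386, minus strand) are shown. C1qb and C1qc had nearly the same profile over the libraries. C3ar1 was less close to them, though the nearest of the 9 genes outside C1q, and the profile of C3 differed more. Capitals mark AGGAAG on either strand, a core of binding sites of the ETS family to which the macrophage factor PU.1 belongs, and TTGCNNAA on either strand, a core of C/EBP sites.
C1qb: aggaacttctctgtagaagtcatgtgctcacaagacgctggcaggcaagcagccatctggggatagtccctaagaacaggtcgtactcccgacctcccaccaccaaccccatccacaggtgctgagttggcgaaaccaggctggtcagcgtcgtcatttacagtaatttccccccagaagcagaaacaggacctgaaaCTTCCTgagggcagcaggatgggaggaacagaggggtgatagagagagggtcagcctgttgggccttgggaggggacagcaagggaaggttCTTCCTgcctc
C1qc: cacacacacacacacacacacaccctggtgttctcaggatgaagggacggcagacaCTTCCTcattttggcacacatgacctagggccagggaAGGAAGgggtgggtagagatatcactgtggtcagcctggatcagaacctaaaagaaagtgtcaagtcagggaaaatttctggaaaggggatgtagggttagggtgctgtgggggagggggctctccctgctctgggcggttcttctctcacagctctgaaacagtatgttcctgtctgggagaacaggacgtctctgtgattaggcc
C3ar1: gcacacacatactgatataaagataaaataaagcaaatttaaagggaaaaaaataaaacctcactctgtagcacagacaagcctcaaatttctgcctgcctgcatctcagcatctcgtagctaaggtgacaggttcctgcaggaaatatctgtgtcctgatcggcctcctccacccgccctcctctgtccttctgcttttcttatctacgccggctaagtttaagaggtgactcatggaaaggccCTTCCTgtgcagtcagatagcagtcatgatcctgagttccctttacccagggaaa
C3: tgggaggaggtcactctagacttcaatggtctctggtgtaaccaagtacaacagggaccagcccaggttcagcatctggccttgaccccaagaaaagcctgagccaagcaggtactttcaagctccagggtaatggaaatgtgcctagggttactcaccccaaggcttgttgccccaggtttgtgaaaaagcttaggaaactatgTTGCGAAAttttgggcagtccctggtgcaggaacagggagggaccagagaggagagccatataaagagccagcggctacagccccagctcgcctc
AGGAAG occurred at 2 places in the C1qb window, 2 in that of C1qc and 1 in that of C3ar1, and was not found in those of C3 and Cd55. It is a frequent word, held by 35.4% of the 32851 promoter windows of the RefSeq table. TTGCNNAA occurred at 1 place, in the C3 window, and was held by 10.8% of all windows. An NF-kB core, GGG and CC with any 5 bases between them on either strand, was in all 5 windows and in 50.8% of the table. An interferon response core, GAAA and GAAA with any 2 bases between them, was in none of the 5 and in 3.44% of the table. The capitalised matches do not overlap each other, and a match describes letters, not binding.

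C1qa, the A chain gene of C1q, was at 598, 1055 and 1092 in the libraries labelled knockdown replicates 1, 2 and 3, against 1463, 1096 and 1055 in wild type. The groups overlapped, with replicate 1 of the labelled knockdown low and wild-type replicate 1 high, and the other 4 libraries lay close together. The means were 915 ± 275 in the labelled knockdown and 1205 ± 225 in wild type (SD, n = 3 each). The log2 difference was -0.43 (SE 0.26, 95% interval -1.05 to 0.19, limma adjusted p = 0.441). C1qb, the B chain gene, was at 591, 1109.8 and 1023 in the labelled knockdown, against 1539, 1212 and 1115 in wild type. These groups did not overlap, but the highest library labelled knockdown and the lowest wild-type library were only 5.68 units apart, on a scale whose adjustment between libraries is unknown. The means were 908 ± 278 in the labelled knockdown and 1289 ± 222 in wild type (SD, n = 3 each), a log2 difference of -0.54 (SE 0.26, limma adjusted p = 0.363). C1qc, the C chain gene, was at 450.4, 839 and 807 in the labelled knockdown and at 1099, 948 and 812 in wild type, with overlap and a log2 difference of -0.49 (SE 0.26, limma adjusted p = 0.390).

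The 3 differences leaned on replicate 1 of each group, and most on that of the labelled knockdown. Without the library labelled knockdown replicate 1 they were -0.15 for C1qa, -0.26 for C1qb and -0.20 for C1qc. Without wild-type replicate 1 they were -0.28, -0.41 and -0.38. The mean of C1qb was above that of 99.2% of the genes tested, C1qa above 99.2% and C1qc above 98.9%. These ranks are by mean level on the deposited scale, whose adjustment is not stated.

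The subunits kept a nearly fixed proportion to each other. C1q protein is built from equal numbers of the A, B and C chains. The log2 ratio of C1qb to C1qa lay between -0.09 and 0.15 in the 6 libraries, and that of C1qc to C1qa between -0.44 and -0.21. The SD of these ratios over the 6 libraries was 0.08 for both, whereas the SD of the log2 level itself was 0.42 for C1qa, 0.46 for C1qb and 0.44 for C1qc. The spread of the ratios was thus far smaller than that of the levels.

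Macrophage markers had lower means beside C1q, although none passed the test. All 10 had a lower mean in the libraries labelled knockdown and none was at 0 in any library. Of the 10, 7 were lower without overlap, against 9.88% of all genes. Their summed value was 2391, 4981 and 3928 in the labelled knockdown and 7334, 5368 and 5654 in wild type, mostly Lyz2. In bulk tissue, fewer cells of a type and less RNA per cell cannot be told apart. Set against the sum of the other 9 markers, C1qa was not lower. Its log2 ratio to that sum was 0.22, 0.18 and 0.24 in the labelled knockdown and 0.03, -0.0036 and -0.06 in wild type. That of C1qb was 0.20, 0.25 and 0.14 against 0.10, 0.14 and 0.02 in wild type, and that of C1qc was -0.19, -0.15 and -0.20 against -0.38, -0.21 and -0.44. Per unit of this sum, in which abundant markers such as Cd68 weigh most, all 3 subunits therefore had a higher mean in the labelled knockdown. Against single markers this need not hold. Their log2 differences ran from -0.92 for Adgre1 to -0.23 for Mertk, and that of Mertk was smaller than those of the C1q genes. On the ratio to the sum, the groups did not overlap for C1qa and, narrowly, for C1qc (lowest -0.199 in the labelled knockdown, highest -0.212 in wild type). The share of all genes without overlap on such a ratio was not computed. With Lyz2 in the sum the mean log2 ratio was -2.03 in the labelled knockdown and -2.35 in wild type for C1qa, without overlap. For C1qb and C1qc the groups overlapped with Lyz2 in the sum. These ratios are a description, and the part of macrophages in the C1q values was not tested.

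C3ar1, the gene of the C3a receptor, which myeloid cells carry, followed the C1q genes. It lies on the minus strand of chromosome 6, at 122847138 to 122856161. It was at 57.8, 109.9 and 77.8 in the libraries labelled knockdown and at 148, 104 and 120.4 in wild type. Only replicate 2 of the labelled knockdown reached into the wild-type range. The means were 81.9 ± 26.3 in the labelled knockdown and 124 ± 21.9 in wild type (SD, n = 3 each), and the log2 difference was -0.63 (SE 0.24, 95% interval -1.19 to -0.07, limma adjusted p = 0.313). Its difference was -0.41 once replicate 1 of the labelled knockdown was left out. Its mean log2 ratio to the macrophage markers other than Lyz2 was -3.27 ± 0.27 in the labelled knockdown and -3.29 ± 0.10 in wild type (SD, n = 3 each), a difference of 0.02, less than either SD.

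C4b, C3 and Cfb had a different profile, low in replicates 1 and 2 of the labelled knockdown and high in replicate 3. C3 encodes the protein on which all routes converge and lies on the minus strand of chromosome 17, at 57203970 to 57228136. It was at 56.1, 103 and 303 in the libraries labelled knockdown, against 161, 225 and 287 in wild type. The library labelled knockdown replicate 3 had the highest C3 of all 6, and the other 2 of its group lay below every wild-type library. The means were 154 ± 131 in the labelled knockdown and 224 ± 63.0 in wild type (SD, n = 3 each), and the log2 difference of -0.85 had a 95% interval of -2.18 to 0.48 (limma adjusted p = 0.471). Leaving out replicate 1 of the labelled knockdown gave -0.30, and leaving out its replicate 3 gave -1.51.

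Cfb encodes factor B, the protease of the alternative route's C3 convertase. It was at 10.1, 11.4 and 47.9 in the libraries labelled knockdown and at 33.2, 42.3 and 66.2 in wild type. The library labelled knockdown replicate 3 lay inside the wild-type range and the other 2 below it. Cfb had the largest mean difference of the 9 genes, -1.30 on the log2 scale (SE 0.56, 95% interval -2.62 to 0.03, limma adjusted p = 0.340). It ran from -1.98 without replicate 3 of the labelled knockdown to -0.91 without its replicate 1.

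C4b encodes the C4 protein that C1 cleaves. It was at 19.3, 22.98 and 69.9 in the libraries labelled knockdown and at 39.96, 59.2 and 65.9 in wild type, with the highest and the lowest library both in the labelled knockdown. The log2 difference was -0.75 (SE 0.46, 95% interval -1.83 to 0.33, limma adjusted p = 0.440). Leaving out replicate 1 of the labelled knockdown gave -0.41, and leaving out its replicate 3 gave -1.31. C4b (34728380 to 34743882) and Cfb (34856374 to 34862518) lie on the minus strand of chromosome 17 in a cluster with C2. A near-identical copy of C4b, C4a, is annotated at 34809092 to 34823464 and has no value here, so reads of the pair may be combined or split in C4b. The annotated ends of Cfb and C2 are 85 bases apart on the same strand, so reads at that border may be uncertain too.

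Markers of other cell types were also low in these 2 libraries. All 6 mesothelial markers had a lower mean in the labelled knockdown and none was at 0. Their sum was 18.7, 31.5 and 169 there and 80.9, 119 and 103 in wild type. All 6 B cell markers had a lower mean, with a sum of 61.1, 67.4 and 523 in the labelled knockdown and 801, 673 and 1326 in wild type, and Pax5 at 0 in 1 library. Most of that sum was Ighm, the 1 B cell marker that was lower without overlap. Averaged over the 6 genes on the log2 scale and centred, the B cell markers were at -1.49, -1.70 and 0.68 in the labelled knockdown and 0.64, 0.19 and 1.68 in wild type, so replicate 3 of the labelled knockdown lay within the wild-type range. Of the adipocyte markers, 4 of 5 tested had a lower mean and Fabp4 a higher one. Their sum was 1036, 226 and 1160 in the labelled knockdown and 547, 898 and 588 in wild type, nearly all of it Fabp4 in replicates 1 and 2 of the labelled knockdown. Adipoq, the defining fat cell gene, was at 0.45, 0.83 and 84.8 in the labelled knockdown and at 29.1, 91.3 and 45.5 in wild type, and Plin1 and Cidec were at 0 in replicate 2 of the labelled knockdown. Fibroblast markers had no common direction, with 4 of 7 lower and 3 higher in their means. All 6 monocyte markers, all 5 neutrophil markers tested and 6 of 7 T cell markers had a lower mean in the labelled knockdown, and 5 of 6 endothelial markers a higher one. The part of these cells in the complement values was not tested. Of the hepatocyte markers, Apoa2 was at most 7.75 and Alb at most 4.51 in any library. These were the 2 tested, and both had a higher mean in the labelled knockdown.

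**Figure D2:**
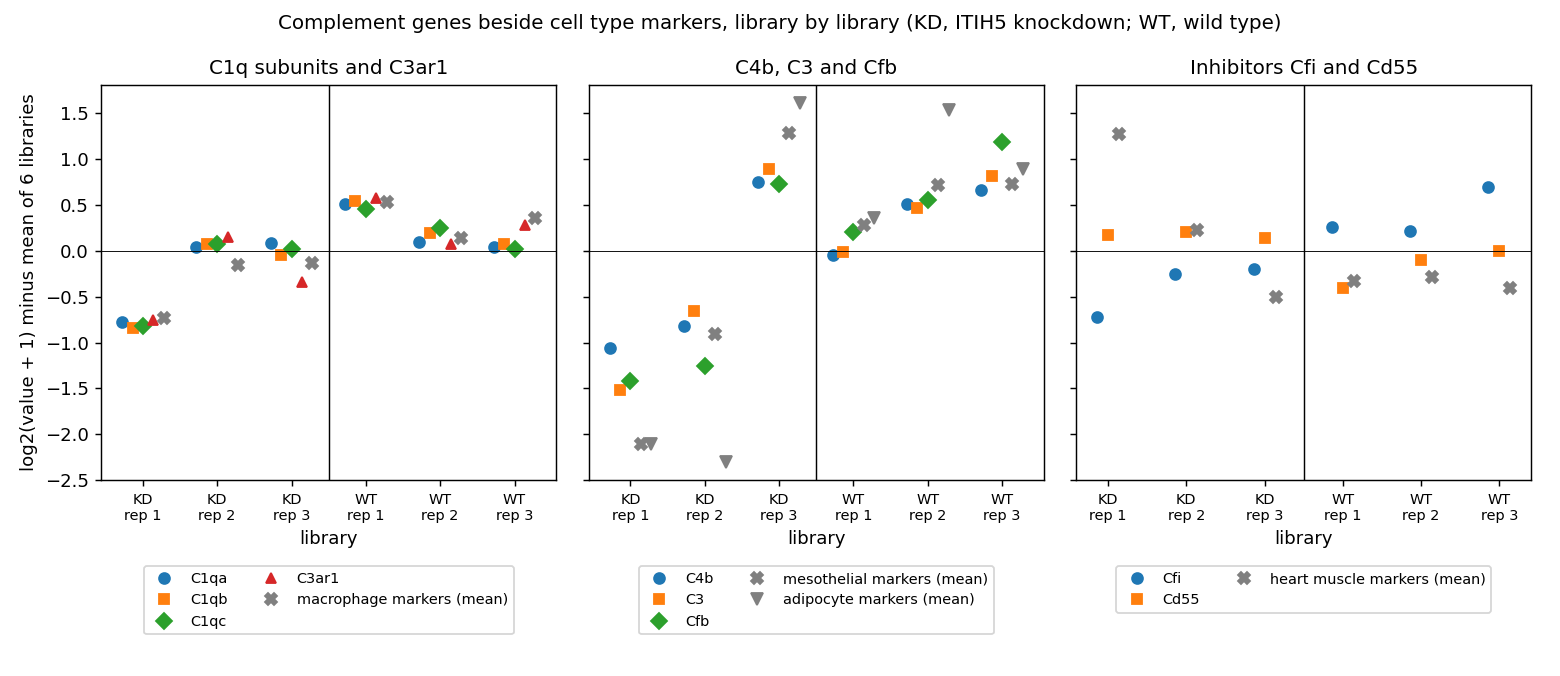
Values on the log2(value + 1) scale minus the gene's mean over the 6 libraries (y axis), for each library labelled KD (ITIH5 knockdown) and WT (wild type); coloured symbols are the complement genes and grey symbols the mean over all markers of a cell type. In the middle panel the library labelled knockdown replicate 3 is within the wild-type range for Cfb. It is above every wild-type library for C4b, C3 and both marker lists. In the left panel the C1q genes, C3ar1 and the macrophage markers are lowest in replicate 1 of the labelled knockdown.

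The inhibitor genes went opposite ways in their means. Cfi encodes factor I, a soluble protease that inactivates C3b and C4b, and lies on the plus strand of chromosome 3, at 129835884 to 129875332. It was at 2.48, 3.83 and 3.99 in the libraries labelled knockdown and at 5.87, 5.66 and 8.27 in wild type. Every library labelled knockdown was lower than every wild-type library. In units of each library's step these were 2.13, 3.99 and 3.999 in the labelled knockdown against 6.02, 6.05 and 9.24 in wild type, so the nearest values of the groups were about 2 steps apart. The means were 3.44 ± 0.83 in the labelled knockdown and 6.60 ± 1.45 in wild type (SD, n = 3 each). The log2 difference was -0.78 (SE 0.20, 95% interval -1.26 to -0.30, limma adjusted p = 0.296), and it stayed between -0.87 and -0.61 when any single library was left out. With a pseudocount of 5 in place of 1 it was -0.46. Cfi was the weakest of the 9 genes, its mean being above that of 22.3% of those tested.

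Cd55 encodes a membrane-anchored protein that speeds the decay of C3 convertases on the cell's own surface, and lies on the minus strand of chromosome 1, at 130439027 to 130462744. It was at 49.9, 51.1 and 48.9 in the libraries labelled knockdown and at 33.1, 41.3 and 44.1 in wild type. The libraries labelled knockdown lay within a narrow band above all wild-type libraries. The means were 49.9 ± 1.09 in the labelled knockdown and 39.5 ± 5.69 in wild type (SD, n = 3 each), and the log2 difference was 0.34 (SE 0.12, 95% interval 0.06 to 0.62, limma adjusted p = 0.302). It was 0.22 without wild-type replicate 1. With every library rescaled to the same sum it was 0.20 with overlap between the groups, where the median of all genes was -0.13. A closely related neighbour, Cd55b, is annotated at 130388537 to 130423009 and has no value here, so reads of the pair may be combined or split in Cd55. The ratio of Cd55 to C3, an inhibitor of the convertase to its substrate, differed widely within the labelled knockdown. Its log2 value was -0.17, -1.01 and -2.63 there and -2.28, -2.45 and -2.70 in wild type.

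The profiles of the 9 genes were compared with each other by the root mean square difference of their log2(value + 1) values, each centred on its mean over the 6 libraries. The C1q genes differed from each other by 0.05 to 0.08 and from C3ar1 by 0.16 to 0.21. C4b, C3 and Cfb differed from each other by 0.22 to 0.33, and from the C1q genes by 0.59 to 0.83. Cfi was nearest to C3ar1 (0.28), and Cd55 was 0.55 to 1.10 from the others. With 6 libraries these distances describe the samples and carry no test.

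**Figure D3:**
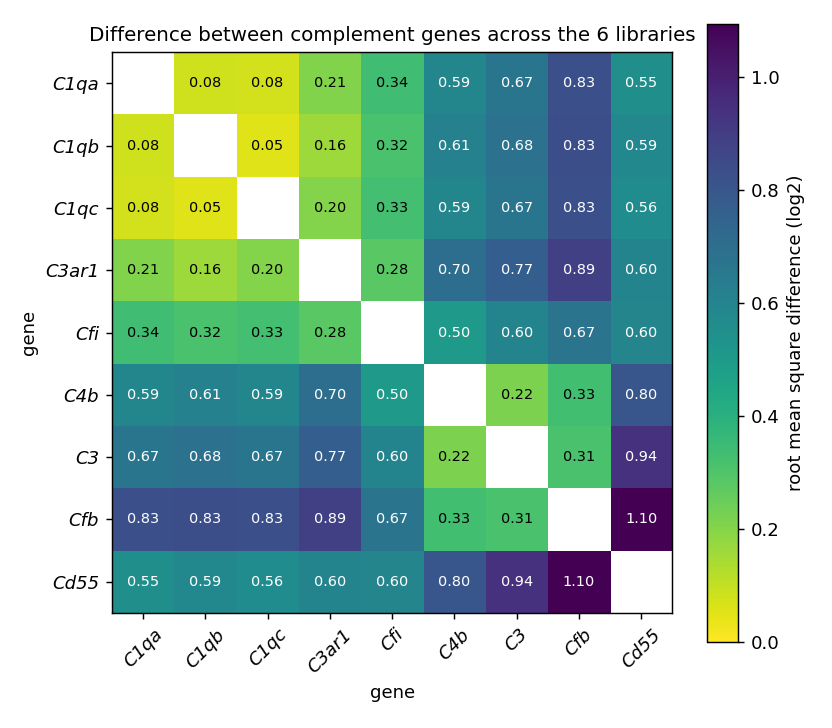
Root mean square difference (log2 units, colour scale and numbers) between the profiles of each pair of complement genes over the 6 libraries, with genes on both axes. C1qa, C1qb, C1qc and C3ar1 form a block of small differences, at most 0.21, C4b, C3 and Cfb form another, at most 0.33, and Cd55 differs from all the others.

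By the same distance, over the 10903 tested genes with a mean of at least 5, the nearest to C1qa were Tmem51 (0.04), the leukocyte gene Lst1 (0.04) and Pirb (0.05), an inhibitory receptor gene of myeloid cells. The nearest to C3 were C2 (0.18), the carboxypeptidase gene Cpz (0.18) and C4b (0.22). The nearest to Cfi were Arsi (0.08), the interferon-induced gene Isg15 (0.08) and Fcrl1 (0.08), and the nearest to Cd55 were Gin1 (0.04), Cnrip1 (0.05) and Polr1e (0.06). C2, which pairs with C4 in the classical convertase, was at 3.76, 4.76 and 18.97 in the libraries labelled knockdown and at 9.73, 14.1 and 16.6 in wild type, and thus low in the same 2 libraries as C3.

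The rest of the cascade was read from a list of 45 further complement genes, of which 30 were in the table and 28 were tested. Of these, 19 had a lower mean in the labelled knockdown and 9 a higher one, and the median log2 difference was -0.13. That median was -0.03 without the library labelled knockdown replicate 1. None passed the limma test over all genes. At an unadjusted p under 0.05 there were 5 lower, against 6.55% of all genes, and 0 higher. Of the 28, 3 were lower without overlap, a share near the 9.88% of all genes. That count was 10 without replicate 3 of the labelled knockdown, where the share of all genes was 18.4%. Without the library labelled knockdown replicate 3, Fcna and Cfd passed as lower.

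Among the initiators, 6 of 7 tested had a lower mean. Fcna, a ficolin gene of macrophages that starts the lectin route, was at 1.43, 0.90 and 4.99 in the libraries labelled knockdown and at 9.79, 12.3 and 16.7 in wild type (log2 difference -2.18, SE 0.42). The groups did not overlap, and the values were within a few steps of 0 in replicates 1 and 2 of the labelled knockdown. Its limma adjusted p was 0.296. It was 0.0231 without replicate 3 of that group and 0.111 to 0.646 in the other alternatives run. The C1 protease genes C1ra (log2 difference -0.31) and C1s1 (-0.46) overlapped between the groups, and Colec11, a collectin gene of the lectin route, was at 0.24.

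In the alternative route, Cfd, the factor D gene that fat cells express strongly, was at 1.44, 3.47 and 852 in the libraries labelled knockdown and at 285, 809.6 and 402 in wild type (log2 difference -4.43, SE 2.04). The difference was -7.10 without replicate 3 of the labelled knockdown and -2.88 without its replicate 1. Its limma adjusted p was 0.351, 0.0078 without replicate 3 of the labelled knockdown, and 0.335 to 0.646 in the other alternatives. Cfp, the gene of properdin, which stabilises the convertase and is made by leukocytes, was at 35.4, 46.2 and 71.9 in the labelled knockdown and at 76.2, 67.6 and 75.5 in wild type (log2 difference -0.56, SE 0.23). Replicates 1 and 2 of the labelled knockdown lay below every wild-type library for both genes. Replicate 3 lay within the wild-type range for Cfp and above every wild-type library for Cfd. Leaving out replicate 1 gave -0.34 for Cfp.

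Of the 10 further receptor genes, 9 had a lower mean. Itgam (log2 difference -0.70, SE 0.28) and Itgb2 (-0.64, SE 0.25) encode the chains of complement receptor 3 of myeloid cells. Itgb2 was at 37.97, 69.4 and 73.8 in the libraries labelled knockdown and at 107, 86.4 and 82.5 in wild type, without overlap. Vsig4, a C3b receptor gene of resident macrophages, was lower without overlap, at 1.29, 0.93 and 2.00 in the labelled knockdown and 2.94, 2.83 and 7.42 in wild type, a gap of about 1 step. Its log2 difference was -1.09, and -0.71 without wild-type replicate 3. Leaving out replicate 1 of the labelled knockdown gave -0.42 for Itgam and -0.35 for Itgb2. The C5a receptor gene C5ar1 was at -0.45 (SE 0.20) and at -0.24 without that library, and calreticulin (Calr), a C1q-binding protein of most cells, at -0.18. Cr1l was listed with the receptors although it encodes Crry, a membrane inhibitor of the mouse, and was at -0.07.

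Among inhibitors other than Cfi and Cd55, of the 4 further soluble inhibitor genes tested 3 had a higher mean, and of the 3 membrane inhibitor genes 2 did. Abundant ones were Clu (log2 difference 0.10, SE 0.30), the clusterin gene, and Serping1 (-0.13, SE 0.20), which encodes the C1 inhibitor. Both 95% intervals spanned 0. Vtn, the vitronectin gene, was at 76.6, 33.6 and 54.9 in the labelled knockdown and at 35.1, 33.6 and 36.7 in wild type, highest in replicate 1 of the labelled knockdown and with overlap. The only terminal pathway genes tested, C7 (0.10) and C8g (0.03), were within a few steps of 0 in every library.

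**Figure D4:**
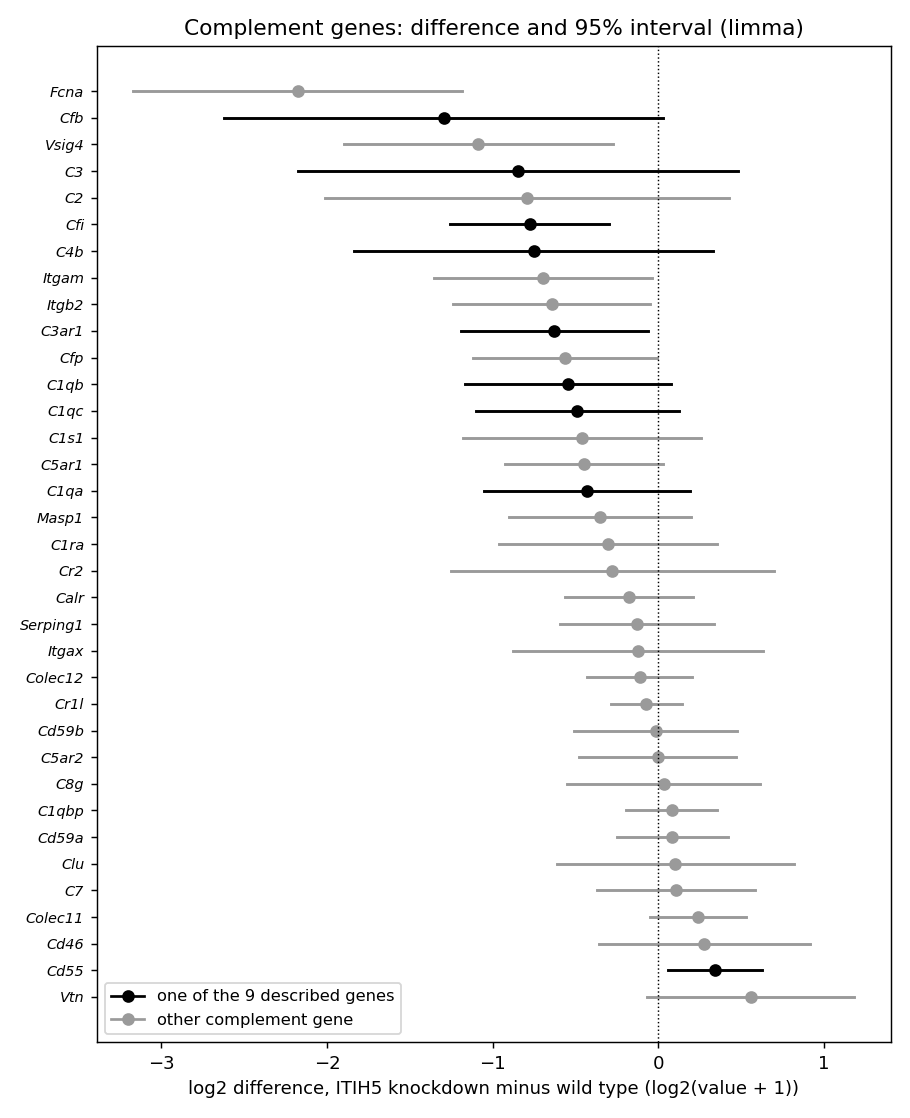
Log2 difference, libraries labelled ITIH5 knockdown minus wild type, on the log2(value + 1) scale (x axis), with its 95% interval from limma, for the 9 described genes (black) and other tested complement genes (grey) ordered from top by size; Cfd, at -4.43 with an interval that reaches far beyond the axis, is left out. Most points lie left of 0, Cd55 is the 1 described gene to the right of it, and among the 9 the intervals are widest for Cfb, C3 and C4b.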

How the data were processed

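RNA from infarcted mouse myocardium was enriched for poly(A) transcripts and sequenced, per the labels' protocols, which name 2 kits without assigning them. Per the submitters' processing notes, the genome was mm10. Aligner, quantifier and use of strand: not given in the sources used here. In the 1 table that the authors deposited, named as TPM, the values were treated as an adjusted score, since columns sum to between 901558 and 1159651 rather than to 1000000. The planned test for TPM was kept for this score. Of 16205 rows, 6 with a repeated symbol were left out. Analysis used log2(value + 1) for 14025 genes with a mean of at least 1, and the moderated test of limma 3.58.1 (R 4.3.3) with an intensity trend, without covariates, Benjamini-Hochberg adjusted over all genes at 0.05. Fold changes on this scale understate changes of low genes. The fit was run on simulated data with the same spread for every gene and no outlying library. That run does not check it on the uneven spread of these libraries. Alternatives changed the pseudocount, filter, scaling, trend, a replicate block and each library in turn. The 9 genes, the further complement genes, the markers and the rule for naming genes were chosen with earlier results of these data known. That rule names the 9 genes, the 6 further complement genes with the smallest unadjusted p, those with a mean of 100 or more, and 3 nearest profiles each for C1qa, C3, Cfi and Cd55. Others named (C1ra, C1s1, Colec11, Cr1l, Vtn, C7 and C8g) were picked after their values were seen. One gene that the rule names is not reported here. The motifs were chosen with earlier results known, and those to capitalise were picked after their matches were counted. Coordinates are from GENCODE M21 of the same build.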

Additional observations from a re-analysis of the deposited data

How the results depend on the processing

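In each of the 15 alternatives run, 8 of the 9 genes kept a lower mean and Cd55 a higher one, and 0 passed the test. With every library rescaled to a sum of 1000000, the median of all genes moved to -0.13, 4 of the 9 genes were lower without overlap (C1qa, C1qb, C1qc and Cfi, background 17.1%) and 0 were higher without overlap (background 5.92%). At an unadjusted p under 0.05 that scaling gave 1398 lower and 458 higher genes, against 919 and 1162 as deposited, and 643 and 1550 when mitochondrially encoded genes were left out before rescaling. Leaving out each library in turn, the number of the 9 genes lower without overlap ran from 2 to 6, being 6 without the library labelled knockdown replicate 3 (C1qa, C1qb, C3, C4b, Cfb and Cfi, background 18.4%), 4 without replicate 2 of that group (background 17.0%) and 4 without wild-type replicate 3 (background 13.4%). The number of further complement genes called ran from 0 to 2, and of all genes called lower from 0 to 13, both highest without the library labelled knockdown replicate 3. Fcna, at -2.67 then, passed. With the replicate number as a block, 0 of the 9 genes and 0 of all genes passed and 764 were lower and 1039 higher at an unadjusted p under 0.05. The numbers were not taken as pairs in the main fit, and the correlations below do not settle whether they are. Deviations of same-numbered libraries correlated at 0.06, 0.06 and 0.14 over genes, and those of other pairs at -0.11 to 0.06. Each library labelled knockdown correlated best with the wild-type library of its own number. Wild-type replicate 1 correlated best with replicate 2 of the other group, by a small margin (0.0595 against 0.0559). Steps of about 1 unit limit Cfi, Vsig4 and the terminal genes.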
